A study of Mus musculus with 12 samples.

Results

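Retinoic acid is a small diffusible derivative of vitamin A that switches genes on and off through nuclear receptors. Retinaldehyde dehydrogenases (Aldh1a1, Aldh1a2, Aldh1a3) make it from retinal. The cellular retinoic acid-binding proteins Crabp1 and Crabp2 carry it in the cytoplasm, and the cytochrome P450 enzyme Cyp26b1 oxidises it for removal. Retinoic acid receptors (Rara, Rarb and Rarg) bind it and act on DNA as pairs with retinoid X receptors (Rxra, Rxrb and Rxrg). In the fetal forebrain Aldh1a2 is known from the meninges that wrap the brain, and Rarb and Rxrg are known from the striatum, which lies beneath the cortex.

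The 9 genes described are Aldh1a1, Aldh1a2, Aldh1a3, Crabp1, Crabp2, Cyp26b1, Rara, Rarb and Rxrg. They were listed by name with earlier results of these data known, so their counts and medians describe these 9 genes only. All 9 were found among the 22667 gene identifiers of the deposited tables. All 9 passed the filter on low counts, as did 16111 genes in all.

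The study sequenced messenger RNA of mouse embryos, shortly before birth (stage E18.5), from dissected cortex and hippocampus. Control embryos carried the label wild type, and knockout (KO) embryos lacked functional Srrm4 (also called nSR100), a splicing regulator of neurons. The KO allele came from EUCOMM stem cells with a conditional allele, nSR100lox, that were aggregated with morulae of the outbred ICR stock. Its exons 7 and 8 were removed by crossing to mice with a Cre transgene under the cytomegalovirus promoter, B6.C-Tg(CMV-cre)1Cgn/J, which is not limited to neurons, and the line was kept on C57Bl/6N. The labels name 2 stem cell clones and do not say which embryos came from which clone. Each tissue of each genotype gave 2 libraries, which makes 4 groups, with 58210499 to 140052443 counts per library. The labels do not say whether the libraries of a group came from separate embryos, nor how many embryos each held. Levels of Y-linked genes, given below, differed between the 2 libraries of every group, so these were not repeats of the same RNA sample. P-values measure the spread between libraries, which may be partly technical.

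Levels are given in RPKM, the read count scaled by gene length and by library size, which allows levels of different genes to be set side by side. Srrm4 lay between 24.22 and 27.86 RPKM in the 4 control libraries and between 5.68 and 8.12 RPKM in the 4 KO libraries, so the genotype labels held. Of 6 cortex markers, 5 were lower in hippocampus than in cortex in both genotypes and Fezf2 was higher, and 5 of 6 hippocampus markers were higher. Hippocampus KO replicate 1 stood apart. Mitochondrial genes took 4.401% of its counts and 3.142% to 3.444% elsewhere. Results on KO hippocampus are therefore also given without that library.

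The upstream sequences of Rarb and Rxrg are shown because these receptor genes differed most in level between the tissues among the 6 genes with at least 1 RPKM in a group. Each is the 250 bases before a transcription start in RefSeq (GRCm38.p6), read 5′ to 3′ on the gene's strand. The Rarb stretch is chr14:16575477-16575726 on the minus strand. The Rxrg stretches, before 2 alternative starts, are chr1:167598112-167598361 and chr1:167618015-167618264 on the plus strand. Capitals mark matches on either strand to AGGTCA, the core motif of these receptors, or to its known variants. The variants searched were AGTTCA and GGGTCA, and also GGTTCA.
Rarb: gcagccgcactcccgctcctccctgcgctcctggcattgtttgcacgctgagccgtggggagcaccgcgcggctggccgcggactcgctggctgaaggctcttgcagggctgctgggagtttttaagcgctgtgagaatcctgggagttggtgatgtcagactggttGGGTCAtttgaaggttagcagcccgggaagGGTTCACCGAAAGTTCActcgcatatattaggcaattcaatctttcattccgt
Rxrg, first start: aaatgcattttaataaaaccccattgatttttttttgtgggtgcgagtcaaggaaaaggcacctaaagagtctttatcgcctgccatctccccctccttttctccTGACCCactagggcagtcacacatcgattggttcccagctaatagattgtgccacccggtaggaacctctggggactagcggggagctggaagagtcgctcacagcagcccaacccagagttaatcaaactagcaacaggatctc
Rxrg, second start: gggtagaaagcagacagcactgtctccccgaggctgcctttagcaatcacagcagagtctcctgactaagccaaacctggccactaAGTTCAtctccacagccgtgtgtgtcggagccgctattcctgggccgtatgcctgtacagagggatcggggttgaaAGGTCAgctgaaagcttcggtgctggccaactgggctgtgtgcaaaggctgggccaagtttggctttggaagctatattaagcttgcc

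In the Rarb sequence a pair of core motifs stood in the same direction with a spacer of 5 bases, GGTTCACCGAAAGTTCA, starting 53 bases before the transcription start. A repeat of this kind in the Rarb promoter is the textbook retinoic acid response element. Of the 32851 upstream stretches of this length in the RefSeq table, 29 held such a repeat with a spacer of 5 (0.08828%), whereas 38.64% held at least 1 core motif. Another core motif, GGGTCA, began 83 bases before the Rarb start. The Rxrg stretches held 1 and 2 core motifs and no direct repeat with a spacer of 1, 2 or 5 bases. Neither did those of Aldh1a1, Aldh1a2, Crabp1, Cyp26b1 and Rara, in 9 stretches. A match of letters is a description and says nothing of receptor binding in these tissues.

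The tissue comparison asked where the retinoid genes are expressed. In controls, 8 of the 9 genes differed between hippocampus and cortex (edgeR's quasi-likelihood test, adjusted p under 0.05), 2 higher and 6 lower in hippocampus. Over all 16111 genes tested, 33.9% passed, 19% higher and 14.9% lower. The median log2 fold change of the 9 genes was -0.65, against 0.01 over all genes tested. Since the set was chosen with earlier results known, these figures are no test of retinoid genes as a class. Of 4 receptor genes outside the set (Rarg, Rxra, Rxrb and Ppard), 2 were higher in hippocampus of controls, 0 lower and 2 did not pass. The receptor genes Rarb and Rxrg were 12.2-fold and 12.5-fold lower in hippocampus. The enzymes split: Aldh1a1 and Aldh1a2 were higher in hippocampus and Aldh1a3 was lower. These are whole-tissue samples, so fewer cells of a type and less RNA per cell cannot be told apart.

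**Figure D1:**
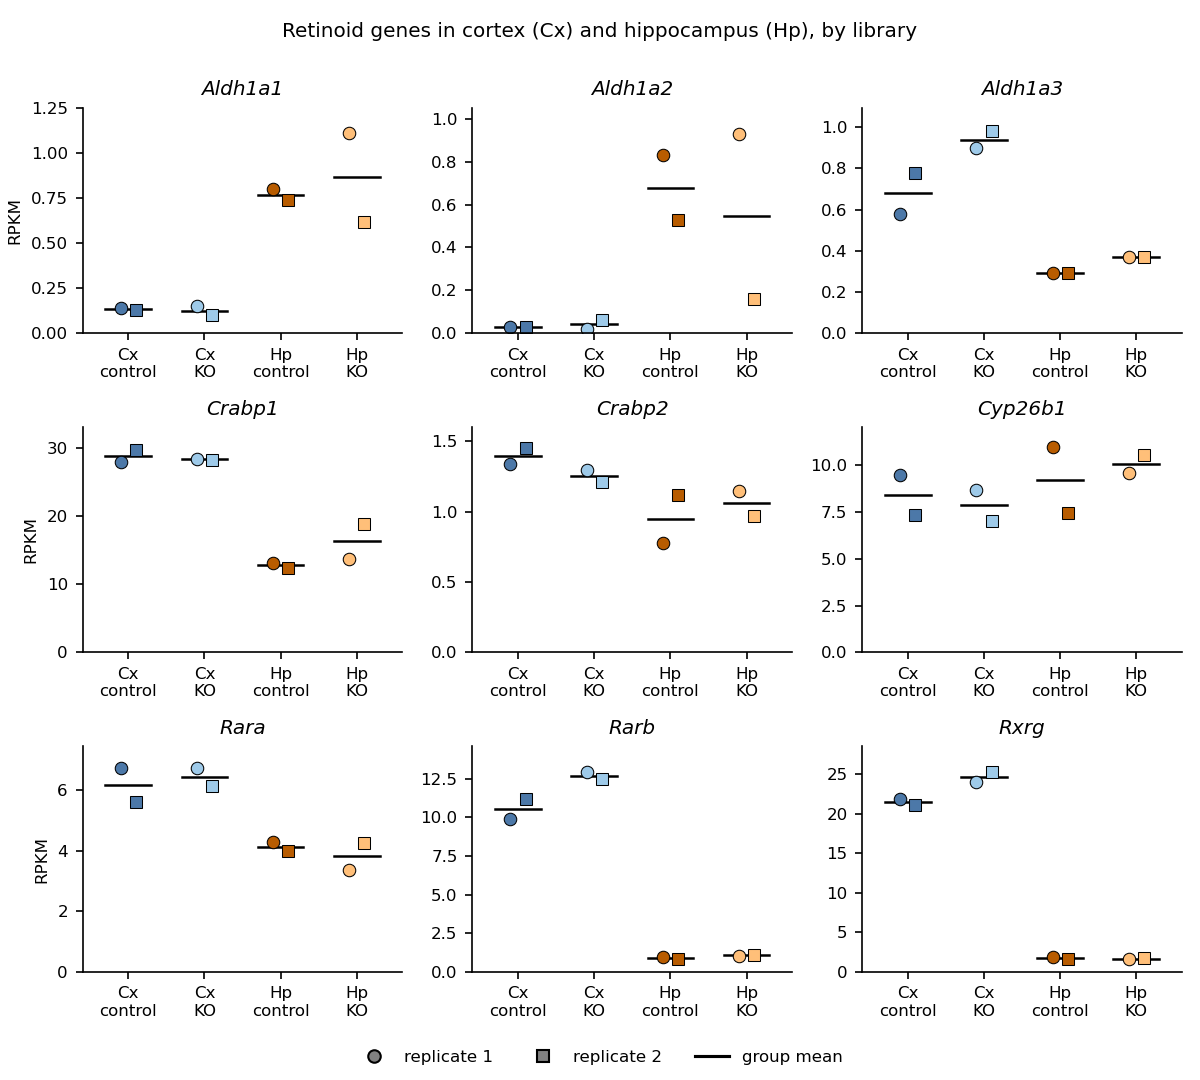
Level of each of the 9 retinoid genes in RPKM (vertical axes, from 0) in the 8 libraries, by group (Cx, cortex; Hp, hippocampus); circles are replicate 1, squares replicate 2 and black lines group means. Rarb and Rxrg sit at 9.93 RPKM or above in every cortex library and at 1.92 RPKM or below in every hippocampus library, whereas Cyp26b1 lies between 7.02 and 10.95 RPKM in all 8.

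Aldh1a2, the enzyme that supplies most retinoic acid to the early embryo, was close to the detection limit in cortex. It lay at 0.03 and 0.03 RPKM in control cortex, 0.02 and 0.06 in KO cortex, 0.83 and 0.53 in control hippocampus, and 0.93 and 0.16 in KO hippocampus (replicates 1 and 2). In counts, cortex libraries held 5 to 8 and hippocampus libraries 21 to 252. Every hippocampus library lay above every cortex library, and hippocampus KO replicate 2 was the lowest of the 4. The log2 fold change between the tissues was 4.45 (edgeR, SE 0.88, adjusted p = 0.0052) in controls, a 21.9-fold difference with a wide 95% interval on the log2 scale, from 2.44 to 6.47. Without cortex control replicate 1 it was 4.30 with an adjusted p of 0.0577 (edgeR).

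Meningeal markers, like Aldh1a2, tended to be higher in hippocampus. Of 10 meningeal genes, 7 were higher in hippocampus of controls and 6 in KO, and 0 were lower in either. Over all genes tested, 19% were higher in controls and 21.2% in KO. None of the 10 meningeal genes was at 0 in any library. The list's summed level was 9.3 to 10.81 RPKM in the cortex libraries and 28.84 to 32.14 RPKM in control hippocampus. In KO hippocampus it was 32.18 RPKM in replicate 1 and 21.09 RPKM in replicate 2, the library with the lower Aldh1a2 level. Of 10 choroid plexus markers, 6 were higher and 1 lower in hippocampus of controls, and 2 were higher and 1 lower in KO. Their summed level was 3.31 to 9.24 RPKM in the cortex libraries, 20.18 and 168.1 RPKM in the control hippocampus libraries, and 34.28 and 34.98 RPKM in KO hippocampus, so the control mean rests largely on 1 library. Other lists were higher in hippocampus of controls too, so this direction was not particular to these 2. Higher were 6 of 6 microglia markers, 5 of 6 hippocampus markers and 6 of 7 markers of Cajal-Retzius cells, with 1 lower. The part of the meninges or choroid plexus in the Aldh1a2 difference was not tested.

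Aldh1a1, an enzyme known from the retina and from dopamine neurons of the midbrain, was also low in cortex. It lay at 0.14 and 0.13 RPKM in control cortex, 0.15 and 0.10 in KO cortex, 0.80 and 0.74 in control hippocampus, and 1.11 and 0.62 in KO hippocampus, on 9 to 29 counts per cortex library and 50 to 189 per hippocampus library. The tissues did not overlap. The log2 fold change was 2.43 (edgeR, SE 0.34, adjusted p = 0.00093) in controls. Of 6 listed markers of midbrain dopaminergic neurons, 3 could be tested (Th, Slc6a3 and Nr4a2), and 2 of them were lower in hippocampus of controls and 3 in KO. Slc6a3 lay at 0.13 RPKM or below in cortex. Pitx3, Foxa2 and Lmx1b had at most 10 counts in any library and were not tested. The list thus does not show whether such neurons were present in either tissue. Of 8 endothelial markers, 4 were higher in hippocampus of controls and 3 in KO, 0 were lower, and 4 and 5 did not pass. Over all genes tested, 19% and 21.2% were higher. The list's median log2 fold change was 0.32 in controls and 0.21 in KO. Its summed levels were 57.38 to 64.15 RPKM in cortex and 71.39 to 83.51 RPKM in hippocampus. In controls the meningeal and choroid plexus lists had medians of 2.18 and 2.29. Whether endothelial, meningeal or choroid plexus cells take part in the Aldh1a1 difference was not tested.

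Aldh1a3, known from the nasal and retinal epithelium and from the ganglionic eminence that gives rise to the striatum, went the other way. Its levels were 0.58 and 0.78 RPKM in control cortex, 0.90 and 0.98 in KO cortex, 0.29 and 0.29 in control hippocampus, and 0.37 and 0.37 in KO hippocampus. Every cortex library lay above every hippocampus library. The log2 fold change was -1.27 (edgeR, SE 0.17, adjusted p = 0.00085) in controls. The makeup of the enzyme family therefore differed between the tissues. Aldh1a3 took 77.33% to 85.96% of the summed Aldh1a RPKM in the cortex libraries and 15.1% to 32.17% in the hippocampus libraries, where Aldh1a1 took 41.67% to 53.91% and Aldh1a2 13.91% to 43.23%. The 3 genes together stayed low, at 0.75 to 1.14 RPKM in cortex and 1.15 to 2.41 RPKM in hippocampus.

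Of the binding proteins, Crabp1, which holds retinoic acid in the cytoplasm, was the most abundant of the 9 genes. It lay at 28.00 and 29.79 RPKM in control cortex, 28.36 and 28.33 in KO cortex, 13.19 and 12.42 in control hippocampus, and 13.69 and 18.91 in KO hippocampus. The tissues did not overlap, and hippocampus KO replicate 2 was the highest hippocampus library. Crabp1 was 2.37-fold lower in hippocampus of controls (edgeR, log2 fold change -1.24, SE 0.15, adjusted p = 0.00048).

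Crabp2, which delivers retinoic acid to the receptors in the nucleus, was far less abundant. Its levels were 1.34 and 1.45 RPKM in control cortex, 1.30 and 1.21 in KO cortex, 0.78 and 1.12 in control hippocampus, and 1.15 and 0.97 in KO hippocampus. Crabp1 made up 95.36% to 95.9% of the summed Crabp RPKM in cortex and 91.73% to 95.12% in hippocampus. Crabp2 was lower in hippocampus of controls by a log2 fold change of -0.65 (edgeR, SE 0.21, adjusted p = 0.042), close to the threshold. The call was lost with DESeq2 (adjusted p = 0.0828), with limma on log2(RPKM + 0.1) (0.0573), and from the 4 control libraries alone (0.0577, edgeR). It was also lost without replicate 1 or 2 of control cortex (0.139, 0.147), replicate 1 or 2 of KO cortex (0.0563, 0.0555) or replicate 1 of control hippocampus (0.271, edgeR).

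Cyp26b1, the enzyme that clears retinoic acid, had overlapping levels in the control groups. In KO both hippocampus libraries lay above both cortex libraries, but the difference did not pass. Cyp26b1 lay at 9.47 and 7.33 RPKM in control cortex, 8.69 and 7.02 in KO cortex, 10.95 and 7.44 in control hippocampus, and 9.60 and 10.56 in KO hippocampus. In the first 3 of these groups replicate 1, the deeper library, was the higher one. The difference between tissues in controls did not pass (edgeR, log2 fold change 0.06, SE 0.21, adjusted p = 0.86), with a 95% interval from -0.43 to 0.55. It was -0.28 without hippocampus control replicate 1, -0.14 without cortex control replicate 2, 0.28 without cortex control replicate 1 and 0.33 without hippocampus control replicate 2, so its sign turned with single libraries.

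Among the 3 receptor genes of the set, Rara, found in most tissues, had the smallest tissue difference. It lay at 6.72 and 5.60 RPKM in control cortex, 6.71 and 6.14 in KO cortex, 4.27 and 4.0 in control hippocampus, and 3.37 and 4.25 in KO hippocampus. The tissues did not overlap. The log2 fold change in controls was -0.65 (edgeR, SE 0.15, adjusted p = 0.013). It was no longer called when cortex control replicate 1 (adjusted p = 0.109) or hippocampus control replicate 2 (0.0812, edgeR) was left out.

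Rarb, a receptor gene that retinoic acid itself induces in many tissues, lay at 9.93 and 11.20 RPKM in control cortex and 12.92 and 12.50 in KO cortex. In hippocampus it lay at 0.98 and 0.82 RPKM in control and 1.04 and 1.12 in KO. Every cortex library was thus far above every hippocampus library. Rarb was 12.2-fold lower in hippocampus of controls (edgeR, log2 fold change -3.61, SE 0.13, adjusted p = 2.4e-06). Exons of Rarb overlap those of Top2b and of Gm48162 on the opposite strand in the GENCODE M21 annotation. No source used here gives the strand setting of the counting, so reads of the shared stretch cannot be told apart. Top2b, a DNA topoisomerase, lay at 84.7 to 100.3 RPKM in the 8 libraries, with a log2 fold change of -0.15 between the tissues in controls.

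Rxrg, a partner receptor, showed the same order. It lay at 21.81 and 21.04 RPKM in control cortex, 23.94 and 25.21 in KO cortex, 1.92 and 1.67 in control hippocampus, and 1.57 and 1.74 in KO hippocampus. Rxrg was 12.5-fold lower in hippocampus of controls (edgeR, log2 fold change -3.64, SE 0.11, adjusted p = 1.5e-06). The lowest cortex library held 21.04 RPKM and the highest hippocampus library 1.92 RPKM.

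Striatal markers moved with Rarb and Rxrg. All 12 listed striatal genes were lower in hippocampus in both genotypes, with a median log2 fold change of -3.08 in controls and -3.21 in KO. Over all genes tested, 14.9% were lower in controls and 18.8% in KO. The summed level of the striatal genes was 146 to 153.2 RPKM in the cortex libraries and 22.62 to 24.76 RPKM in the hippocampus libraries. The defining dopamine receptor genes Drd1 and Drd2 had means of 5.76 and 6.25 RPKM in control cortex and 0.86 and 0.46 RPKM in control hippocampus. No marker of the list was at 0 in any library. Interneuron markers were lower as well, 10 of 10 in both genotypes, with summed levels of 523.5 to 567.1 RPKM in cortex and 156.8 to 213.8 RPKM in hippocampus. The part of striatal tissue in the cortex libraries in the Rarb, Rxrg and Aldh1a3 differences was not tested.

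**Figure D2:**
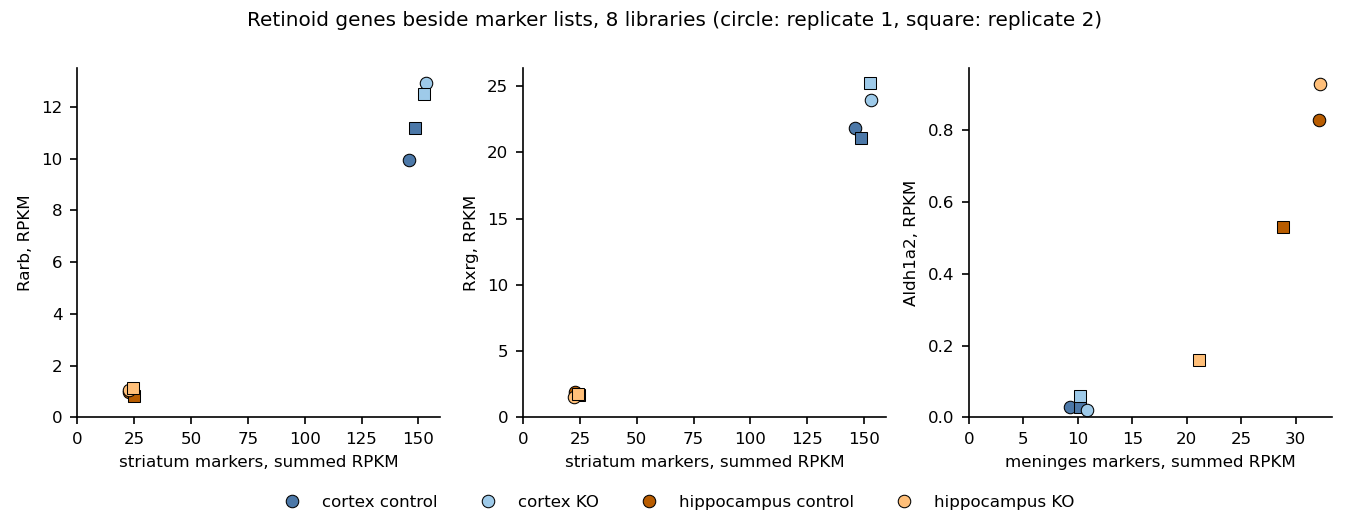
RPKM of Rarb, Rxrg and Aldh1a2 (vertical axes) against the summed RPKM of 12 striatal or 10 meningeal markers (horizontal axes) in the 8 libraries, coloured by group, with circles for replicate 1 and squares for replicate 2. Rarb and Rxrg are high in the 4 cortex libraries, whose striatal sum is at least 146 RPKM, and Aldh1a2 is lowest among hippocampus libraries in the KO library with a meningeal sum of 21.09 RPKM.

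The other receptor genes give the frame. In control cortex the order of levels was Rxrb, Rxrg, Rarb, Rara, Rxra and Rarg, with means of 28.5, 21.4, 10.6, 6.16, 3.86 and 3.18 RPKM (n = 2 each). In control hippocampus the order was Rxrb, Rxra, Rara, Rarg, Rxrg and Rarb, with means of 26.1, 7.08, 4.14, 3.10, 1.80 and 0.90 RPKM. Neighbours in the order did not overlap between libraries in any group, except Rara and Rarg in KO hippocampus. Rarb and Rxrg thus followed Rxrb at the top of the order in cortex and stood at its end in hippocampus. Rarb took 49.9% to 57.52% of the summed Rar RPKM in cortex and 10.2% to 14.42% in hippocampus. Rxrg took 39.62% to 42.23% of the summed Rxr RPKM in cortex and 4.777% to 5.478% in hippocampus. Rxra was higher in hippocampus of controls (edgeR, log2 fold change 0.81, SE 0.12, adjusted p = 0.0012). Rxrb and Rarg did not pass, with log2 fold changes of -0.20 (SE 0.07) and -0.11 (SE 0.19). In KO, Rxra (0.59, SE 0.12) and Rxrb (-0.32, SE 0.07) passed. Ppard, a nuclear receptor that can also be reached by retinoic acid through Fabp5, was higher in hippocampus of controls (edgeR, 0.45, SE 0.13, adjusted p = 0.033) and did not pass in KO.

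**Figure D3:**
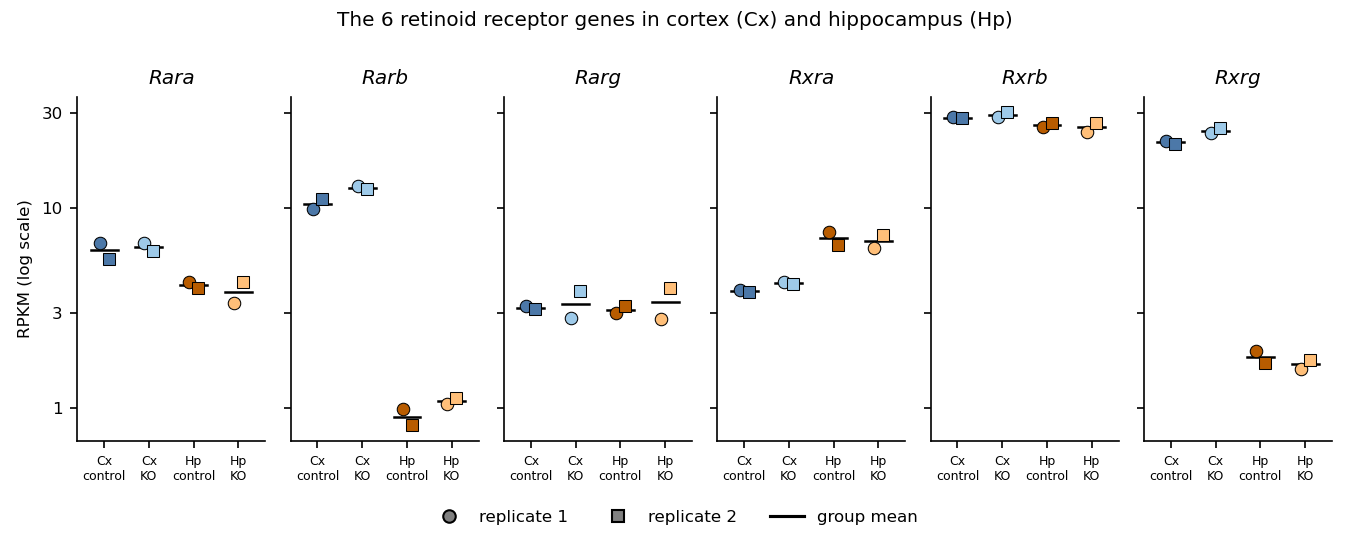
Levels of the 6 retinoid receptor genes in RPKM on a log scale (vertical axis) in the 8 libraries by group (Cx, cortex; Hp, hippocampus), with circles for replicate 1, squares for replicate 2 and black lines for group means. Rarb drops from a mean of 10.6 to 0.90 RPKM and Rxrg from 21.4 to 1.80 RPKM between cortex and control hippocampus, while Rxrb stays between 24.25 and 30.3 RPKM in all 8 libraries.

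The same comparison in KO embryos rests on libraries that the control comparison does not use, with a spread estimated over all 8. There 7 of the 9 genes passed, 2 higher and 5 lower in hippocampus, against 40% of all genes tested (21.2% higher, 18.8% lower). The median log2 fold change of the 9 was -0.87, and 0.03 over all genes. Rarb had a log2 fold change of -3.67 (edgeR, SE 0.13, adjusted p = 1.9e-06) and Rxrg of -4.01 (edgeR, SE 0.12, adjusted p = 1.0e-06). Aldh1a3 was lower by -1.43 (SE 0.17), Crabp1 by -0.91 (SE 0.15) and Rara by -0.87 (SE 0.16) on the log2 scale, with adjusted p from 0.00038 to 0.0031 (edgeR). Aldh1a1 was higher, with a log2 fold change of 2.62 (SE 0.34, adjusted p = 0.00056), and so was Aldh1a2, with 4.04 (edgeR, SE 0.88, adjusted p = 0.0075). Crabp2 did not pass (-0.34, SE 0.21, adjusted p = 0.22), nor did Cyp26b1 (edgeR, 0.25, SE 0.22, adjusted p = 0.39).

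Without hippocampus KO replicate 1, 6 of the 9 genes passed in KO. The log2 fold changes were then -3.60 for Rarb, -3.92 for Rxrg, -1.44 for Aldh1a3, -0.68 for Crabp1, -0.70 for Rara and 2.11 for Aldh1a1, with adjusted p of at most 0.0222 (edgeR). The Aldh1a2 value moved to 2.22 and missed the threshold (edgeR, SE 0.68, adjusted p = 0.0506), since only the library with 21 counts was left in that group. Aldh1a2 in KO also missed it without cortex KO replicate 1 (3.23, adjusted p = 0.0732, edgeR) and with limma on log2(RPKM + 1) (0.53, adjusted p = 0.0877).

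**Figure D4:**
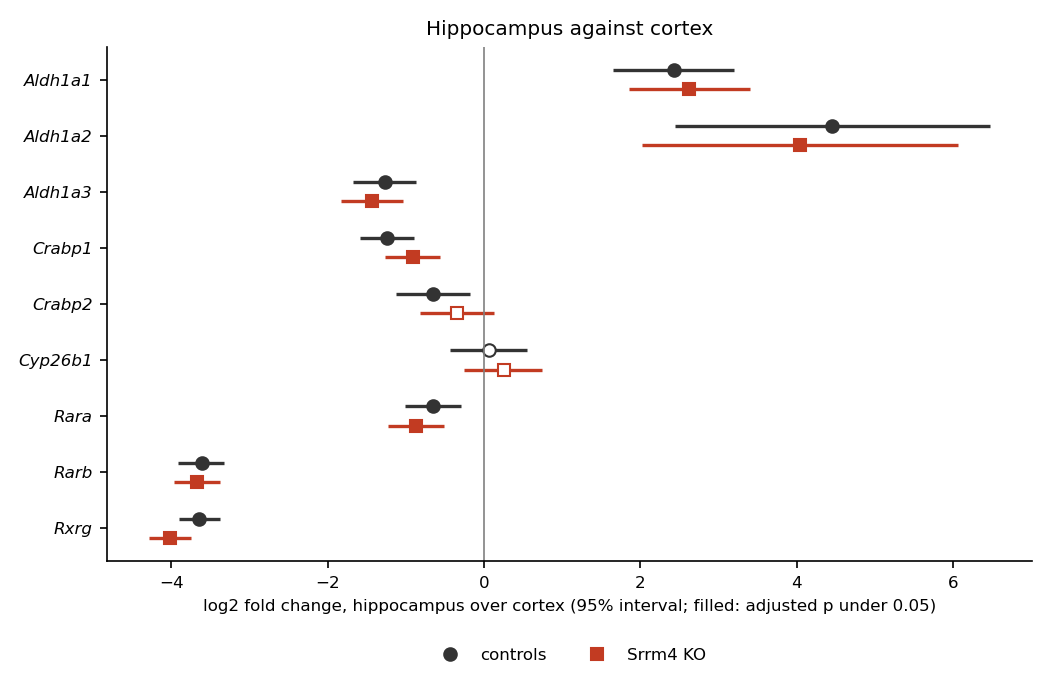
Log2 fold change of each retinoid gene in hippocampus over cortex (horizontal axis; bars are 95% intervals from edgeR) in controls (black circles) and Srrm4 KO (red squares); filled symbols passed an adjusted p of 0.05. The values run from -4.01 for Rxrg in KO to 4.45 for Aldh1a2 in controls, and only Cyp26b1 in both genotypes and Crabp2 in KO have open symbols.

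The genotype comparisons asked whether loss of Srrm4 changed the retinoid genes. None of the 9 genes passed in cortex (0.0186% of all genes tested passed), in hippocampus (0.0248%) or over both tissues (0.0621%), and none had a KO effect that differed between the tissues (0%). None passed with DESeq2 or limma either. At an unadjusted p under 0.05, Aldh1a3 and Rarb were found in cortex (1.14% of all genes tested), none in hippocampus (3.81%), and the same 2 genes over both tissues (4.43%). These p-values do not show that the genes were the same in both genotypes, and the intervals below give the differences the data allow.

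Aldh1a3 lay higher in both KO libraries than in both controls of each tissue (0.90 and 0.98 against 0.58 and 0.78 RPKM in cortex, 0.37 and 0.37 against 0.29 and 0.29 in hippocampus). Its log2 fold change over both tissues was 0.41 (edgeR, SE 0.12, 95% interval 0.15 to 0.67, unadjusted p = 0.0063, adjusted p = 0.98). Rarb lay higher in the KO libraries of each tissue as well, by 0.25 on the log2 scale (edgeR, SE 0.08, 95% interval 0.07 to 0.42, unadjusted p = 0.011, adjusted p = 1.0). Of all genes tested, 2.66% had both KO libraries above both controls in each tissue. The striatal marker sum was 146 and 148.5 RPKM in control cortex and 153.2 and 152.5 RPKM in KO cortex. In hippocampus it overlapped between genotypes, at 22.77 and 24.76 RPKM in control and 22.62 and 24.3 RPKM in KO. Without hippocampus KO replicate 1 the values were 0.43 for Aldh1a3 and 0.28 for Rarb.

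In cortex, 4 of the 9 genes had no overlap between genotypes on TMM-scaled CPM, as had 16 of the 46 other pathway genes tested. Aldh1a3, Rarb and Rxrg were higher in KO and Crabp2 was lower. For Rxrg the log2 fold change in cortex was 0.20 (SE 0.10, 95% interval -0.03 to 0.43). It was -0.17 (SE 0.11) in hippocampus, where the groups overlapped. The difference between these KO effects was -0.37 (edgeR, SE 0.15, unadjusted p = 0.0425, adjusted p = 1.0), and 0.981% of all genes tested had an unadjusted p under 0.05 for it. Crabp1 had a log2 fold change of 0.31 in KO hippocampus (SE 0.15, 95% interval -0.04 to 0.66), which was 0.54 (edgeR, SE 0.10, adjusted p = 0.957) without hippocampus KO replicate 1. In cortex the value was -0.02 (SE 0.15). On TMM-scaled CPM the genotypes overlapped for Crabp1 in both tissues. For Crabp2 the values were -0.14 (SE 0.20) in cortex and 0.17 (SE 0.21) in hippocampus, and the difference between them, which is also that between the tissue differences of the genotypes, was 0.31 (edgeR, SE 0.29, adjusted p = 1.0).

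For Rara and Cyp26b1 the intervals over both tissues ran from -0.29 to 0.20 and from -0.33 to 0.33 on the log2 scale. The enzymes with few counts were measured less precisely. Aldh1a1 had 0.11 (95% interval -0.37 to 0.60) and Aldh1a2 -0.21 (95% interval -1.36 to 0.93) over both tissues. In cortex, with 5 to 8 counts per library, the Aldh1a2 interval ran from -2.96 to 3.23. Aldh1a2 in hippocampus moved from -0.28 (SE 0.59) to -2.10 (edgeR, SE 0.50, adjusted p = 0.957) without hippocampus KO replicate 1, leaving the KO library with the lowest meningeal sum. Y-linked levels differed between genotypes in replicate 2 and between the replicates of each group. The summed CPM in cortex and hippocampus was 144.1 and 148.1 in control replicate 2, 0.3186 and 0.4123 in KO replicate 2, 35.34 and 39.62 in control replicate 1, and 25.44 and 49.77 in KO replicate 1. The part of this in the KO values was not tested.

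**Figure D5:**
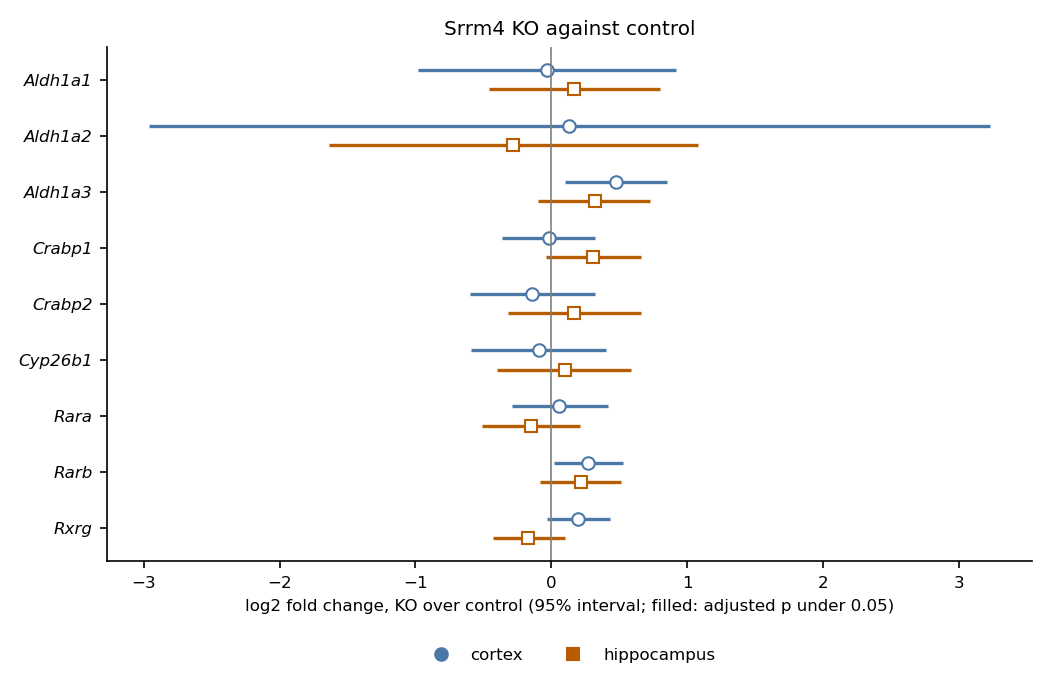
Log2 fold change of each retinoid gene in Srrm4 KO over control (horizontal axis; bars are 95% intervals from edgeR) in cortex (blue circles) and hippocampus (orange squares); a filled symbol would mark an adjusted p under 0.05. All 18 symbols are open, and the Aldh1a2 intervals are the widest, from -2.96 to 3.23 in cortex.

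The wider pathway was read from 55 other genes, of which 46 passed the filter on low counts. In controls 10 were higher in hippocampus, 10 lower and 26 did not pass, and in KO 8 were higher, 13 lower and 25 did not pass. Over all genes tested, 33.9% passed in controls and 40% in KO, as given above. Without cortex control replicate 2 the count of passing genes in controls fell from 20 to 13. The median log2 fold change of the 46 genes was 0.01 in controls and 0.05 in KO. In the genotype comparisons 0 of the 46 passed in cortex, in hippocampus, over both tissues or for the difference between the tissues (edgeR, DESeq2 and limma). At an unadjusted p under 0.05 there were 2, 1, 1 and 3 of them, where 1.14%, 3.81%, 4.43% and 0.981% of all genes tested had such a p.

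Of the enzymes that convert retinol and retinal, 17 could be tested, and 3 were higher and 2 lower in hippocampus of controls. The shares over all genes tested were 19% and 14.9%. Rdh5, a retinol dehydrogenase known from the retinal pigment epithelium, rose from a mean of 0.84 RPKM in cortex to 4.16 RPKM in hippocampus (edgeR, log2 fold change 2.25, SE 0.18, adjusted p = 5.1e-05). Dhrs4, which reduces retinal, was higher by 0.61 (SE 0.11), and Rdh11, another retinal reductase, was lower by -0.38 (SE 0.07) on the log2 scale. Rdh10, the enzyme that makes most embryonic retinal from retinol, did not pass, with 4.47 RPKM in control cortex and 5.41 RPKM in control hippocampus (log2 fold change 0.20, SE 0.11). Lrat, which stores retinol as esters, passed on means of 0.05 and 0.12 RPKM (log2 fold change 1.16, SE 0.24). Adh7, an alcohol dehydrogenase, passed as lower in hippocampus on 61 and 34 counts in control cortex against 3 and 2 in control hippocampus. In KO, Rdh5, Dhrs4, Rdh11 and Adh7 passed in the same directions and Lrat did not pass. Adh5, another alcohol dehydrogenase and one of the 3 most abundant genes of the lists, did not pass, with 89.5 and 103 RPKM in cortex and hippocampus of controls.

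Of the transport and binding genes, 6 could be tested, and 2 were higher and 2 lower in hippocampus of controls (19% and 14.9% of all genes tested). Fabp5, a fatty acid-binding protein that can also bind retinoic acid, was the most abundant gene of the pathway lists, at 415.3 RPKM in control cortex and 541.9 RPKM in control hippocampus (edgeR, log2 fold change 0.31, SE 0.08, adjusted p = 0.018). Rbp4 and Ttr, the serum carriers of retinol, passed in opposite directions, with -0.99 (SE 0.24) and 5.16 (SE 1.46). Ttr lay at 13.42 RPKM in one hippocampus control library and 152.38 RPKM in the other, and neither gene passed in KO. Rbp2, an intestinal retinol-binding protein, passed in KO on means of 0.025 RPKM in cortex and 0.23 RPKM in hippocampus, and did not pass in controls, with 0.065 and 0.11 RPKM. Stra6, the retinol uptake receptor, did not pass in controls (-0.08, SE 0.14) but was lower in hippocampus of KO (edgeR, -0.60, SE 0.13, adjusted p = 0.0091), and the difference between these values did not pass (edgeR, -0.51, SE 0.19, adjusted p = 1.0).

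Of 10 tested genes known from other systems to respond to retinoic acid, 5 were lower and 2 higher in hippocampus of controls. Over all genes tested, 14.9% were lower and 19% higher. The homeobox genes Meis1 and Meis2 were among the lower ones. Meis2, which is also known from the striatum, fell from 146.7 to 38.98 RPKM (edgeR, log2 fold change -1.99, SE 0.11, adjusted p = 1.0e-05) and Meis1 from 6.49 to 0.50 RPKM (edgeR, -3.77, SE 0.26, adjusted p = 2.9e-05). The immediate early gene Egr1 had a log2 fold change of -0.77 (SE 0.23) and Rarres1 of -1.21 (SE 0.27), the last on means of 0.35 and 0.16 RPKM. Tgm2, a transglutaminase, was higher, at 0.605 RPKM in control cortex and 1.03 RPKM in control hippocampus (edgeR, 0.68, SE 0.17, adjusted p = 0.015), as was the zinc finger gene Zfp423 (0.59, SE 0.14). In KO all of these but Rarres1 passed in the same direction. Among the 8 coregulators, Nrip1, a corepressor of nuclear receptors, was lower in hippocampus (edgeR, -1.74, SE 0.16, adjusted p = 0.00012). It passed in KO in the same direction, where the coactivators Ep300 (-0.30, SE 0.07), Ncoa2 (-0.50, SE 0.14) and Ncoa3 (-0.27, SE 0.08) passed as well. The part of striatal tissue in these values was not tested.

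Genes whose levels followed a member most closely were sought over the 8 libraries, among 13020 genes with a mean of at least 1 RPKM in a group. Pearson's r on the log2 CPM scale is given as a description, since all 8 points share 2 tissues and the same libraries. For Rxrg the closest were Klhl29 (r = 0.9987), Aff3 (0.9982) and the dopamine receptor gene Drd2 (0.9979), and 139 genes had an r over 0.99. For Rarb they were Ikzf1 (0.9984), Cd99l2 (0.9983) and Pou3f3 (0.997), with 81 genes over 0.99. Ikzf1, a zinc finger transcription factor, lay at 3.15 to 3.74 RPKM in cortex and 0.31 to 0.42 RPKM in hippocampus. The size of the tissue step could still differ, since Cd99l2 ran only from 41.68 to 43.4 RPKM in cortex and from 32.02 to 33.17 RPKM in hippocampus.

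Rara was followed most closely by Smpd3 (r = 0.9968), Cdh22 (0.9966) and Elavl3 (0.9954). Crabp1 was followed by Pde8b (0.9847), Dok7 (0.9803) and Nefh (0.9791), and no gene reached an r of 0.99 with it. For Crabp2 the closest was Dicer1 (0.9565), and for Cyp26b1, after an identifier without a symbol, Tspan11 (0.9218). Aldh1a1, Aldh1a2 and Aldh1a3 were below a mean of 1 RPKM in every group and were not searched.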

How the data were processed

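The deposited tables give, per Ensembl gene, a count of reads and an RPKM value made by the authors. Bowtie (no version) and build mm9 are named in the submitters' processing notes. No source used here gives the counting rule, the strand setting or the annotation. The RPKM column holds 1114 cells per table with the text "ne", read as missing, and none belonged to the 9 genes. The deposited RPKM follows from the count, a length per gene and the table's total (ratio of implied lengths from 0.9987 to 1.0013 over 8829 genes). Per the labels' protocols, RNA was taken up in Tri Reagent and TruSeq libraries were sequenced.

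The labels list 12 samples and 8 tables, because runs 1 and 2 of each replicate 1 share a table, used as 1 library. Symbols were matched for 20759 of 22667 identifiers. The 9 genes, the pathway lists and the marker lists were chosen with earlier results of these data known.

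The test was edgeR 4.0.16 (R 4.3.3; glmQLFit, glmQLFTest, TMM scaling, filterByExpr with a minimum count of 10 and minimum total of 15) on the deposited counts, with 4 group means, and an additive model of tissue and genotype for both tissues. P-values were two-sided and adjusted by Benjamini-Hochberg over 16111 genes (threshold 0.05). The fit was tested on simulated counts. An SE is the log2 fold change divided by the square root of F, and 95% intervals use the test's degrees of freedom. A floor of 3 counts equals 0.0214 to 0.0515 CPM. Alternatives were RLE scaling, other filters, DESeq2 1.42.0, limma 3.58.1 on log2 RPKM with pseudocounts of 1 and 0.1, a replicate block, the 4 libraries compared alone, and leaving out each library. The 9 genes were named in every comparison, passed or not. Other pathway genes were named where they passed or had the 3 highest mean RPKM values, with Rdh10, Rxrb, Rarg and Stra6 added after their values were seen. Likeness was Pearson's r of log2(CPM + 0.5).

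Symbols and exon overlaps come from GENCODE M21 (GRCm38), whose build differs from the authors' mm9, so the sequence positions are of GRCm38.p6 only. No promoter sequence was used for Aldh1a3 and Crabp2. A few listed genes are counted in their lists but not reported here.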

Additional observations from a re-analysis of the deposited data

How the results depend on the processing

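The 15 differences between tissues that passed kept their direction under all 234 alternatives run, and 14 of these missed the threshold, all for Aldh1a2, Crabp2 or Rara, as given in the report. None of the 593 alternatives of the other results passed; the lowest adjusted p for a KO effect was 0.389. With a filter of at least 1 RPKM in 2 libraries, 6 of the 9 genes were tested and 5 passed between tissues in controls and 4 in KO, because the Aldh1a genes were removed. With each library left out the counts were 5 to 8 in controls, 5 without cortex control replicate 1, and 6 to 7 in KO. The share of all genes that passed ranged from 20.2% to 43.8% in controls and from 26% to 50.6% in KO over the alternatives. Replicate numbers were shared between groups, but the labels do not tie them to embryos, litters or batches. With only 2 numbers they were not treated as pairs. Deviations of same-numbered libraries from their group means correlated at 0.1325 to 0.687 across 14094 genes. With a replicate block, 8 genes passed between tissues in controls, 7 in KO and 0 in each genotype comparison, the counts without it.

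Log2 fold changes of results that did not pass turned sign near 0. Over both tissues, the KO effect was -0.002 for Crabp2 with limma on log2(RPKM + 1), and -0.001 with RLE scaling and -0.0002 with DESeq2 for Cyp26b1. With each library left out, the KO effect in cortex ran from -0.41 to 0.15 for Aldh1a1, -0.57 to 0.94 for Aldh1a2, -0.05 to 0.0009 for Crabp1, -0.28 to 0.13 for Cyp26b1 and -0.08 to 0.22 for Rara. In hippocampus it ran from -0.34 to 0.48 for Aldh1a1, -2.10 to 0.38 for Aldh1a2, -0.07 to 0.40 for Crabp2, -0.18 to 0.44 for Cyp26b1 and -0.34 to 0.02 for Rara. Over both tissues it ran from -0.20 to 0.30 for Aldh1a1, -1.41 to 0.33 for Aldh1a2, -0.11 to 0.07 for Crabp2, -0.13 to 0.11 for Cyp26b1, -0.12 to 0.05 for Rara and -0.01 to 0.13 for Rxrg. The difference between the KO effects ran from -0.31 to 0.57 for Aldh1a1, -2.23 to 0.29 for Aldh1a2, -0.35 to 0.03 for Aldh1a3, -0.08 to 0.53 for Cyp26b1 and -0.19 to 0.12 for Rarb. The difference between tissues in controls ran from -0.28 to 0.33 for Cyp26b1. The cause was not tested. With 5 to 8 counts per cortex library, a KO effect on Aldh1a2 there was not detectable at this depth unless very large.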

Other observations

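Among the 46 tested retinoid genes outside the 9 described, 16 had no overlap between genotypes in cortex on TMM-scaled CPM. Stra6, the retinol uptake receptor, was among them. It lay at 1.87 and 1.96 RPKM in control cortex and 2.92 and 2.50 RPKM in KO cortex (edgeR, log2 fold change 0.51, SE 0.13, unadjusted p = 0.0050, adjusted p = 1.0). In hippocampus its levels overlapped, at 2.01 and 1.78 RPKM in control and 1.92 and 1.96 RPKM in KO. This value did not pass and was chosen after it was seen.

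The other enzymes that clear retinoic acid were barely detected. Cyp26a1 had 4 to 16 counts per library and Cyp26c1 had 0 to 3, so among the Cyp26 genes of the lists Cyp26b1, at 7.02 RPKM or more in each library, held the highest level.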
